A study of Mus musculus with 19 samples.

Results

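The annexin family was followed in 19 mouse livers through the 10 annexin genes Anxa1 to Anxa8, Anxa11 and Anxa13, taken by symbol from the 35976 rows of the deposited count table. All 10 also passed the filter on low counts that left 16463 genes for testing. The members were chosen by name, but the family was selected on measured genotype differences of these livers, among them the level of Anxa8 in Homo against WT, so the genotype values of the members are descriptions and support nothing by themselves. The livers came from 6 Homo, 6 Het and 7 WT mice, the genotypes being those at Pkd1, which encodes polycystin-1, the large membrane protein most often mutated in autosomal dominant polycystic kidney disease. Each genotype, WT included, carries AAV-Cre, an adeno-associated virus that delivers Cre recombinase. For 3 months every mouse had Western Diet and CCl4 (carbon tetrachloride, a liver toxin), which together model the fatty, inflamed liver called NASH, non-alcoholic steatohepatitis. Per the series' design text these were littermates. Neither the promoter that drives Cre, the Pkd1 exons deleted and the share of cells reached by the virus, nor sex, age or batch is stated. Bulk liver RNA was sequenced, so fewer cells of a type and less RNA per cell cannot be told apart.

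Annexins are cytosolic proteins that bind acidic phospholipids when calcium rises, through a conserved core of repeats, and they help to order, seal and move membranes. Annexin A2 pairs with the S100 protein p11 (gene S100a10) at the cell surface and binds the giant scaffold Ahnak. Annexin A1 is an anti-inflammatory mediator induced by glucocorticoids, and annexin A5 is the protein used to stain phosphatidylserine on dying cells. Several members, such as annexins A3, A8 and A13, are better known from epithelia or white blood cells than from hepatocytes.

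The smallest library held 25.85 M counts (mega) and the largest 42.14 M. Summed hepatocyte markers (Alb, Ttr, Apoa1, Cyp2e1, Asgr1, Hnf4a and Cps1) lay between 15920 and 21674 CPM (each gene's counts scaled by TMM library size) in all 19 livers, which fits the tissue label. Pkd1 itself was at 357 ± 19.7 CPM in Homo, 390 ± 46.2 CPM in Het and 405 ± 38.6 CPM in WT livers (SD, n = 6, 6 and 7). The log2 fold change of Pkd1 in Homo against WT was -0.18 ± 0.08 (SE), which was not called (edgeR quasi-likelihood test, Benjamini-Hochberg adjusted p = 0.315), and it was -0.34 (adjusted p = 0.442) within mice 8 to 13. Counts over the whole gene do not check a deletion of part of it. Each sample title ends in a mouse number whose meaning the labels do not give. Within genotype, 1054 of the 16463 genes (6.40%) followed this number at an adjusted p under 0.05, and mice 1 to 3 are all WT. Mice 8 to 13 are Homo mice 8 and 10 and WT mice 9, 11, 12 and 13. In that subset 2 of 16662 genes were called in Homo against WT, so a missing call there says little. Transcripts of pancreatic enzymes summed to 158.8 CPM in Homo replicate 1, 262.2 CPM in Homo replicate 5 and 125.2 CPM in Het replicate 5, against at most 3.18 CPM in each of the other 16 livers.

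The promoter sequences shown here are those of Anxa8, the member with the largest difference between genotypes, of Anxa2, whose level followed that of its partner S100a10 from liver to liver, and of S100a6 and Ahnak, the annexin partner genes called in Homo livers. They are the bases before the annotated gene start in RefSeq (GRCm38.p6), 5′ to 3′ along the gene's strand and trimmed at the first annotated exon. Each was searched on both strands for the AP-1 motif TGANTCA and the TEAD motif GGAATG, and capitals mark a match.
Anxa8 (chr14:34085729-34085978, plus strand): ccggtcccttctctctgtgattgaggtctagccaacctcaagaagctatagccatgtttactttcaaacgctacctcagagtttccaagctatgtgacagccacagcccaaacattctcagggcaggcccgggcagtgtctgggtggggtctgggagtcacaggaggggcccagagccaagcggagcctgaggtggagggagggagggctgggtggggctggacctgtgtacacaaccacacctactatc
Anxa2 (chr9:69453433-69453619, plus strand): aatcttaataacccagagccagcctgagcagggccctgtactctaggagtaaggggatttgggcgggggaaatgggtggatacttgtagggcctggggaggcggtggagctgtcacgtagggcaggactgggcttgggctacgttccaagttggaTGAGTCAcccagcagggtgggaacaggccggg
S100a6 (chr3:90612644-90612881, plus strand): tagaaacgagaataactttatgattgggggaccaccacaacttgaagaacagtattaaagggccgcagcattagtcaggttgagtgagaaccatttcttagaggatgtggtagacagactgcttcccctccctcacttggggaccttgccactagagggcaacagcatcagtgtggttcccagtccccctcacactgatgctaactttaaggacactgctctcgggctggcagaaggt
Ahnak (chr19:8989034-8989283, plus strand): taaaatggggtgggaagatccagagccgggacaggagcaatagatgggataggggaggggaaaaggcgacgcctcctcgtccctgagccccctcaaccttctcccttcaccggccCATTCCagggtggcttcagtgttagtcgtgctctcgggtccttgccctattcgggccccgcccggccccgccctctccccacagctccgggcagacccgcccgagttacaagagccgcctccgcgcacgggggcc

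The Anxa2 window held 1 AP-1 match, at position -95 relative to the gene start. The Ahnak window held 1 TEAD match, read on the minus strand, at position -135. Neither motif occurred in the Anxa8 and S100a6 windows. Over the first 250 bases of all 32851 RefSeq promoter windows, 6.75% hold the AP-1 letters and 12.6% the TEAD letters, so a match is a description of these letters only. Of the other members, Anxa4, Anxa5, Anxa7 and Anxa11 had a window, with no match to either.

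Liver RNA of this family was mostly that of 4 members. Per kilobase of exon (the union of annotated exons), Anxa6 averaged 39.4 ± 2.65 CPM per kb, Anxa7 31.4 ± 3.43, Anxa5 24.6 ± 3.78 and Anxa4 22.3 ± 2.02 CPM per kb (SD over 19 livers), which together made 90.5% of the family's length-scaled level. Anxa6 encodes the annexin with a duplicated core, and Anxa7, also called synexin, promotes membrane fusion. Below them came Anxa2 at 5.40 ± 1.35 CPM per kb, Anxa11 at 3.27 ± 0.45, Anxa1 at 2.01 ± 0.67 and Anxa3 at 0.98 ± 0.30 CPM per kb. Anxa13, known from the apical membranes of epithelia, and Anxa8, known from stratified epithelia, were the lowest, at 0.47 ± 0.35 and 0.29 ± 0.27 CPM per kb, and together made 0.581% of the family. The order held from liver to liver for most neighbours: Anxa6 lay above Anxa7 in 19 of 19 livers, Anxa7 above Anxa5 in 16, Anxa4 above Anxa2 in 19, Anxa2 above Anxa11 in 17, Anxa11 above Anxa1 in 18, Anxa1 above Anxa3 in 19 and Anxa3 above Anxa13 in 18. Anxa5 exceeded Anxa4 in 12 of 19 livers and Anxa13 exceeded Anxa8 in 15, and in both pairs the means lay closer together than the SD of the higher gene.

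**Figure D1:**
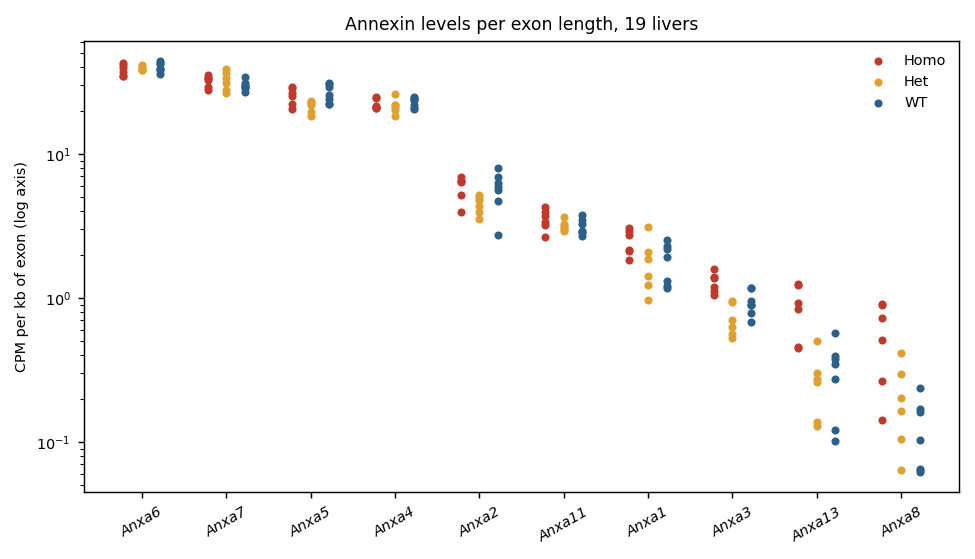
Level of each annexin in CPM per kilobase of exon (log axis), 1 point per liver, in Homo (n = 6), Het (n = 6) and WT (n = 7) livers, with genes ordered by their mean over 19 livers. Anxa6, Anxa7, Anxa5 and Anxa4 lie above all other members, and the Homo points spread farthest above the WT points for Anxa13 and Anxa8.

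The 2 annexins outside the member list were handled the same way. Anxa9 was at 3.71 ± 0.78 CPM in Homo, 3.56 ± 1.35 CPM in Het and 3.92 ± 0.93 CPM in WT livers, a log2 fold change in Homo against WT of -0.08 ± 0.23. Anxa10 had 0 counts in each of the 19 libraries, which is under 3 counts per library.

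Of the 4 abundant annexins, Anxa6, Anxa4 and Anxa7 had 95% intervals for Homo against WT that stayed between -0.20 and 0.27 on the log2 scale. Summed over the 10 members, the family was at 312.5 ± 21.6 CPM in Homo, 300.2 ± 15.7 CPM in Het and 308.8 ± 10.8 CPM in WT livers (SD). Anxa6 was at 95.7 ± 8.54 CPM in Homo, 98.1 ± 3.01 CPM in Het and 100.3 ± 7.08 CPM in WT livers, and its log2 fold change in Homo against WT had a 95% interval of -0.19 to 0.06 (-0.21 within mice 8 to 13, outside this interval, and not called). Anxa4, a gene of secretory epithelia, was at 47.0 ± 3.94 CPM in Homo, 45.6 ± 5.29 CPM in Het and 48.3 ± 3.74 CPM in WT livers (interval for Homo against WT -0.20 to 0.12). Anxa7 was at 97.3 ± 8.83 CPM in Homo, 98.2 ± 14.5 CPM in Het and 91.1 ± 7.12 CPM in WT livers (interval -0.08 to 0.27). Anxa5 had its lowest mean in Het livers. Its lowest, median and highest values were 35.6, 45.0 and 51.0 CPM in Homo, 32.1, 38.5 and 40.3 CPM in Het, and 38.3, 44.5 and 53.9 CPM in WT livers. Of the 6 Homo livers 4 lay above the highest Het liver, and 3 of 6 Het livers lay under the lowest WT liver. The log2 fold change of Anxa5 was -0.30 ± 0.10 in Het against WT and 0.25 ± 0.10 in Homo against Het, and neither was called.

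The low annexins differed more. Anxa8 had 0.269, 1.16 and 1.70 CPM (lowest, median, highest) in Homo, 0.120, 0.344 and 0.784 CPM in Het, and 0.117, 0.194 and 0.444 CPM in WT livers. In 5 of 6 Homo livers the level exceeded that of every WT liver, in 4 it exceeded that of every Het liver, and Homo replicate 5 lay inside the WT range. These levels rest on 10 to 59 counts per library in Homo, 4 to 28 in Het and 4 to 16 in WT. The log2 fold change of Anxa8 (chromosome 14, 34085979 to 34100571, GRCm38) in Homo against WT was 2.19 ± 0.48, a 4.56-fold higher level with a 95% interval of 1.19 to 3.18 on the log2 scale. The adjusted p over all genes was 0.0438, given here as a description because the difference was known when the family was chosen. In Homo against Het the log2 fold change was 1.44 ± 0.48, and in Het against WT it was 0.75 ± 0.49. Over the 19 fits that left out 1 library the adjusted p lay between 0.0165 and 0.117, and the call ended in 12 of them, those without Homo replicates 1, 2, 3 or 4, Het replicates 3 or 6, or WT replicates 1, 2, 3, 5, 6 or 7. Over these 19 fits the log2 fold change stayed between 2.01 and 2.41. It was 2.21 (adjusted p = 0.141) with mouse number as a term, 2.26 (adjusted p = 0.266) without mice 1 to 3 and 2.75 (adjusted p = 0.407) within mice 8 to 13, called in none of these, and it was 2.35 (adjusted p = 0.0417) without the 3 libraries with pancreatic transcripts, an alternative added after seeing the data.

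Anxa13 had the next largest difference from WT in Homo livers. Its lowest, median and highest values were 0.537, 1.06 and 1.51 CPM in Homo, 0.155, 0.323 and 0.608 CPM in Het, and 0.122, 0.417 and 0.687 CPM in WT livers. In Homo, 4 of 6 livers lay above every WT liver and 4 above every Het liver, with an overlap at the low end of Homo. The log2 fold change was 1.45 ± 0.39 in Homo against WT and 1.64 ± 0.42 in Homo against Het, neither of them called by edgeR. Both were called by DESeq2 (adjusted p = 0.0286 and 0.0296), which called 1.93% of all genes in the first comparison and 0.620% in the second.

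Anxa3, an annexin of neutrophils and of some epithelia and endothelia, separated Homo from Het livers without overlap. It had 2.77, 3.37 and 4.17 CPM in Homo, 1.40, 1.75 and 2.49 CPM in Het, and 1.79, 2.36 and 3.11 CPM in WT livers. All 6 Homo livers were above the highest Het liver, a pattern that 0.510% of all genes tested showed in that direction, and 4 of 6 were above the highest WT liver. The log2 fold change was 0.84 ± 0.18 in Homo against Het, 0.46 ± 0.17 in Homo against WT and -0.38 ± 0.17 in Het against WT. None was called by edgeR, while DESeq2 called Homo against Het (adjusted p = 0.00245). With edgeR, Anxa3 was called in Homo against Het in 3 of the 19 fits that left out 1 library: those without Het replicates 4 or 6 or WT replicate 3, where adjusted p was 0.0445, 0.0499 and 0.0493.

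The remaining members overlapped between all genotypes. Anxa1 had 3.48, 4.66 and 5.79 CPM in Homo, 1.83, 3.09 and 5.91 CPM in Het, and 2.23, 3.65 and 4.78 CPM in WT livers (log2 fold change in Homo against WT 0.46 ± 0.24). In Homo, 3 of 6 livers exceeded the highest WT liver, but the highest value of all was that of Het replicate 4. Anxa2 had 5.77, 9.34 and 10.0 CPM in Homo, 5.10, 6.64 and 7.47 CPM in Het, and 3.95, 8.50 and 11.6 CPM in WT livers. The WT range of Anxa2 enclosed both other genotypes, and 5 of 6 Homo livers lay above every Het liver (log2 fold change 0.04 ± 0.18 in Homo against WT and 0.40 ± 0.19 in Homo against Het). Within mice 8 to 13 the log2 fold change of Anxa2 in Homo against WT was 0.41 (adjusted p = 0.872). Anxa11, whose product binds the calcium sensors Pdcd6 and S100a6, was at 9.62 ± 1.59 CPM in Homo, 8.64 ± 0.73 CPM in Het and 8.53 ± 1.08 CPM in WT livers, a log2 fold change in Homo against WT of 0.17 ± 0.11, which was -0.14 within mice 8 to 13 (not called in either). Strand is not stated for the counting, and Anxa11 shares 113 exon bases with the antisense gene Anxa11os and Anxa4 shares 75 with Gm44036, so reads from these stretches cannot be assigned.

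**Figure D2:**
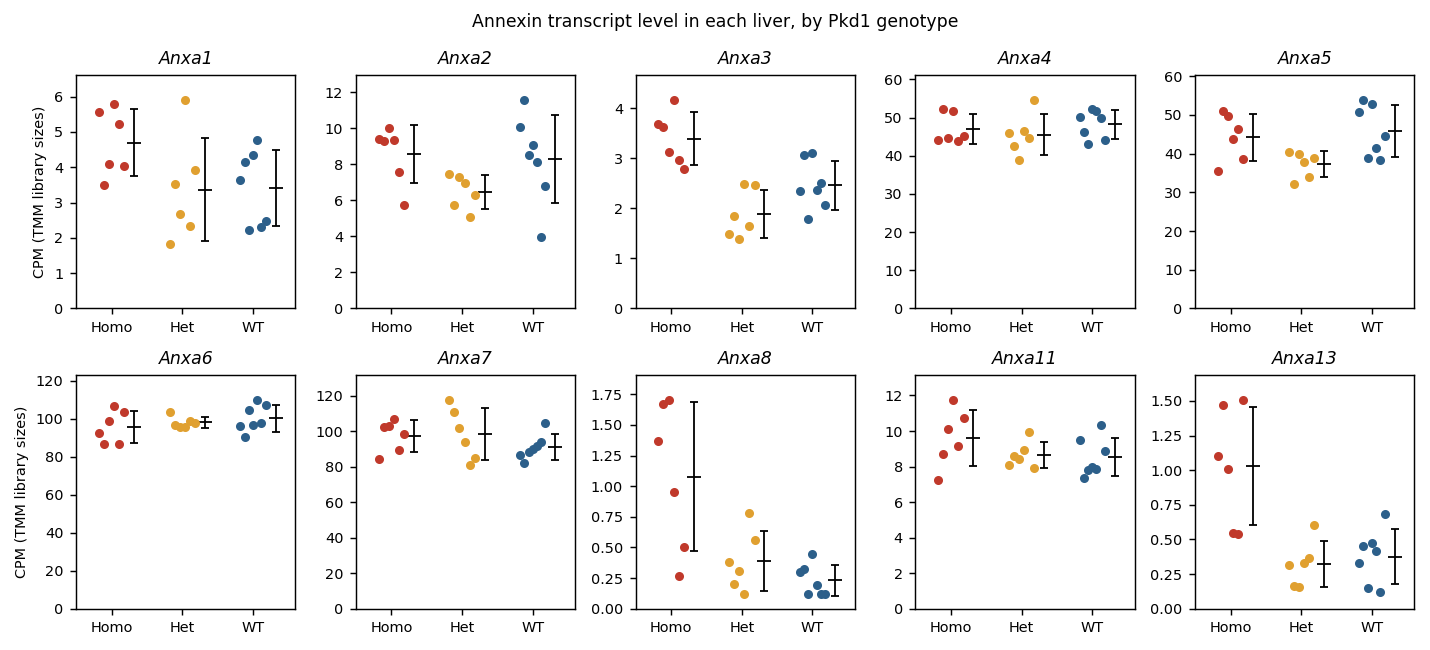
CPM of each annexin in each liver, 1 point per mouse, with the mean and SD beside each genotype (Homo n = 6, Het n = 6, WT n = 7). Each panel has its own axis, which starts at 0; Homo points lie mostly above WT points for Anxa8 and Anxa13, above all Het points for Anxa3, and overlap the WT points for Anxa4, Anxa5, Anxa6 and Anxa7.

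Over the family, 1 of 10 members was called in Homo against WT, beside 0.480% of all 16463 genes, and nothing is read from this count because the contrast was known when the family was chosen. DESeq2 called 2 there (1.93% of all genes) and limma-voom 0 (0.553%). In that comparison 7 of 10 members had a log2 fold change above 0, with a median of 0.13, beside 50.3% of all genes and a median of 0.00. In Het against WT, edgeR called 0 of 10 members (0.0243% of all genes), with 2 at an unadjusted p under 0.05 beside 8.84% of all genes, and DESeq2 (0.170%) and limma-voom (0.0243%) also called 0. In Homo against Het, edgeR called 0 of 10 (0.182% of all genes), with 5 at an unadjusted p under 0.05 beside 6.29% of all genes, DESeq2 called 2 (Anxa3 and Anxa13, beside 0.620%) and limma-voom 0 (0.0972%). There, 8 of 10 members were above 0 beside 49.7% of all genes, with a median of 0.32 beside 0.00 over all genes. The comparisons share libraries: Homo livers enter the first and the last, WT livers the first and the second, and Het livers the second and the last.

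**Figure D3:**
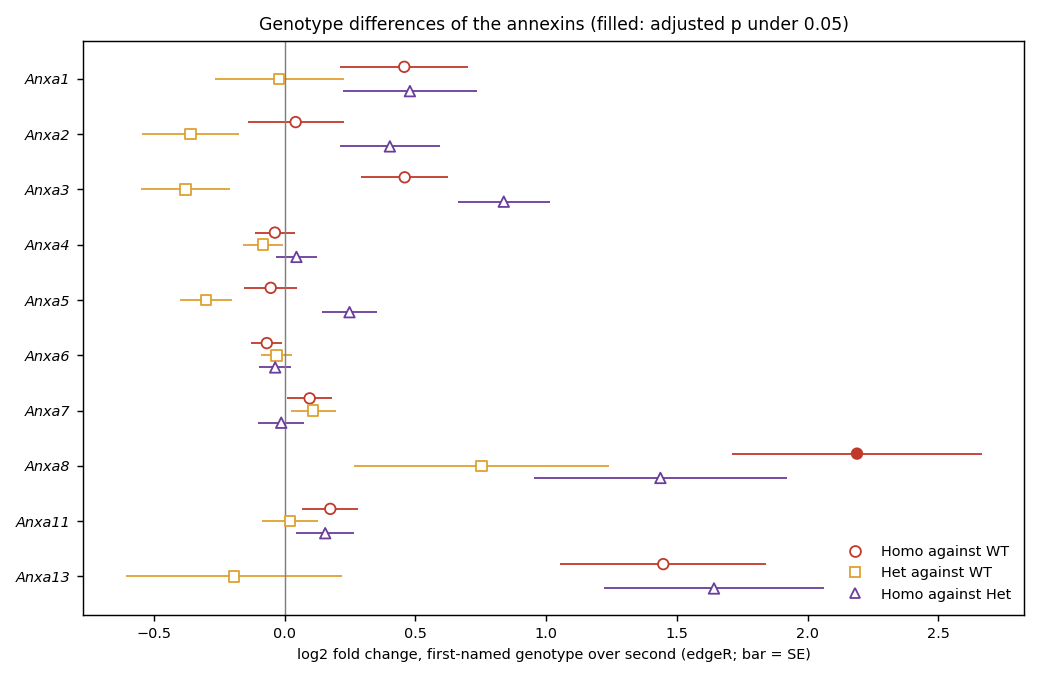
Log2 fold change of each annexin (x axis; bars are SE from edgeR) in Homo against WT, Het against WT and Homo against Het. The filled point marks the 1 call, Anxa8 in Homo against WT at 2.19; Anxa13 is next at 1.45, and Anxa4, Anxa6 and Anxa7 lie near 0 in all 3 comparisons.

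Among the cell type markers, edgeR called only bile duct genes in the genotype comparisons. Of the 12 bile duct markers 11 were tested. In Homo against WT 10 of these were above 0, beside 50.3% of all genes, and 3 were called higher, beside 0.292% of all genes. The 3 were Krt7 by 3.06 ± 0.40, Krt19 by 2.50 ± 0.39 and Tspan8 by 1.98 ± 0.39 on the log2 scale (edgeR adjusted p = 0.00043, 0.00305 and 0.0233). In Homo against Het all 11 were above 0 (49.7% of all genes) and 4 were called (0.182% of all genes), Epcam being the fourth. The summed bile duct markers ranged from 153 to 228 CPM in Homo, 109 to 157 CPM in Het and 96.0 to 160 CPM in WT livers, and none of them was at 0 throughout. Within this sum Pkhd1 made 20.4% and Krt7 0.641%. Other lists leaned the same way. In Homo against Het 9 of 10 fibroblast markers were above 0 (median 0.36), and 4 were at an unadjusted p under 0.05, beside 6.29% of all genes. All 5 tested T and NK markers were above 0 in Homo against WT (median 0.61) and in Homo against Het (median 0.69). The part of bile duct cells or of these other cells in the genotype differences of Anxa8, Anxa13 and Anxa3 was not tested. Summed fibroblast markers were at 252.6 to 305.0 CPM in Homo, 214.7 to 268.6 CPM in Het and 207 to 335 CPM in WT livers, and summed macrophage markers at 198 to 281 CPM in Homo, 226 to 248 CPM in Het and 217 to 282 CPM in WT livers. Mesothelial markers summed to 9.58 to 13.7 CPM in Homo, 6.29 to 13.0 CPM in Het and 3.05 to 11.4 CPM in WT livers, T and NK markers to 2.92 to 6.83 CPM in Homo, 2.00 to 3.72 CPM in Het and 2.39 to 4.83 CPM in WT livers, and neutrophil markers to 12.6 to 37.8 CPM in Homo, 15.0 to 26.4 CPM in Het and 18.5 to 30.8 CPM in WT livers, with Ly6g at 0 in all Homo and all WT livers. Endothelial markers summed to 377 to 429 CPM in Homo, 382 to 438 CPM in Het and 391 to 423 CPM in WT livers. None of the tested fibroblast, macrophage, endothelial, mesothelial, T and NK, neutrophil, hepatocyte or pancreatic markers was called by edgeR in a genotype comparison. Only 5 of 8 T and NK, 3 of 6 neutrophil and 1 of 6 pancreatic markers passed the filter on low counts, so the rest could not be called. In Homo against WT, DESeq2 called the mesothelial marker Msln (edgeR log2 fold change 2.02 ± 0.50, DESeq2 adjusted p = 0.00906) and the endothelial marker Lyve1 (-0.64 ± 0.16, DESeq2 adjusted p = 0.015), and limma-voom called Msln (adjusted p = 0.0347).

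Deviations from the genotype mean do not depend on the genotype differences the family was chosen for. The SD of log2 CPM within genotype was smallest for Anxa6 (0.098), and 13.3% of genes of similar level (within 0.5 on the log2 scale) had a smaller one. It was 0.37 for Anxa2 and 0.47 for Anxa1, above 81.0% and 77.7% of genes of their level, and 0.81 for Anxa8 and 0.67 for Anxa13, above 63.6% and 55.1%. Anxa1 and Anxa2 thus varied more between livers of 1 genotype than most genes of like level, and Anxa6 less. Along the mouse number, 0 of 10 members were called by edgeR beside 6.40% of all genes, 0 of 10 by limma-voom (6.59% of all genes), and 0 of the 8 to which DESeq2 gave an adjusted p, all but Anxa8 and Anxa13 (13.4% of all genes). Anxa2 was the 1 member at an unadjusted p under 0.05 (20.3% of all genes), with a slope of -0.037 ± 0.013 log2 units per number and an adjusted p of 0.106.

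Within genotype, Anxa1 and Anxa3 went with markers of fibroblasts and Anxa3 also with those of macrophages. Each of the 10 members was correlated with the summed level of 4 marker lists over the 19 livers after removal of genotype means, with 100000 permutations within genotype and adjustment over the 40 pairs. The 4 lists were those of bile duct, fibroblasts, macrophages and endothelium. The other lists, that of neutrophils among them, were not correlated with the members. In these sums Dcn was the largest fibroblast marker, at a mean of 154.9 CPM over the 19 livers, and Csf1r the largest macrophage marker, at 128.3 CPM. Anxa1 against fibroblast markers gave Pearson's r = 0.72 (permutation p = 0.00044, adjusted p = 0.016) and Spearman's rho = 0.84 (permutation p = 0.00013, adjusted p = 0.0052). The r was 0.77 without the 2 livers farthest from the median fibroblast level, and 0.69 within Homo, 0.83 within Het and 0.84 within WT livers. Livers whose summed fibroblast markers were high for their genotype thus tended to have high Anxa1 in each genotype. Anxa3 against fibroblast markers gave r = 0.67 (permutation p = 0.0012, adjusted p = 0.016) and rho = 0.71 (permutation p = 0.00097, adjusted p = 0.0194), with r = 0.57 without the 2 farthest livers and 0.14 within Homo, 0.88 within Het and 0.86 within WT livers. Anxa3 against macrophage markers gave r = 0.62 (permutation p = 0.00106, adjusted p = 0.016) and rho = 0.60 (permutation p = 0.00285, adjusted p = 0.038), with r = 0.61 without the 2 farthest livers and 0.70 within Homo, 0.63 within Het and 0.84 within WT livers.

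With the mouse number removed as well, the 3 values of r were 0.74, 0.70 and 0.67 (adjusted p = 0.0149 each). Without mice 1 to 3, all WT, they were 0.74, 0.58 and 0.52 and no longer passed (adjusted p = 0.0968, 0.143 and 0.143). None of the 3 passed without Het replicate 4 (adjusted p = 0.0619 each), and the 2 of Anxa3 did not pass without Homo replicate 6 or without WT replicates 2, 3 or 4 (adjusted p between 0.0512 and 0.0605). With the mean of the markers' log2 CPM as the level of a list, Anxa1 with fibroblast markers gave r = 0.69 (adjusted p = 0.0174), and the 2 correlations of Anxa3 did not pass (r = 0.53 and 0.56, adjusted p = 0.16 and 0.147).

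Anxa8 against bile duct markers gave r = 0.54 (permutation p = 0.0267, adjusted p = 0.178) and rho = 0.67 (permutation p = 0.00452, adjusted p = 0.0452), so that the rank correlation passed and Pearson's did not. It was 0.75 within Homo, 0.92 within Het and -0.06 within WT livers, and 0.43 without the 2 farthest livers. Anxa13 against bile duct markers gave r = 0.48 (permutation p = 0.0555, adjusted p = 0.277) and rho = 0.52 (permutation p = 0.0345, adjusted p = 0.173). Among the 45 pairs of members, 5 had an unadjusted permutation p under 0.05 for Pearson's r and 0 passed after adjustment. The closest were Anxa1 with Anxa3 (r = 0.72), Anxa3 with Anxa4 (r = 0.67) and Anxa2 with Anxa5 (r = 0.63), each with a permutation p adjusted over the 45 pairs of 0.0887. Without the 3 libraries with pancreatic transcripts 2 pairs passed.

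The 2 genes most like each member were taken as those with the highest Pearson's r of deviations over the 19 livers, among 12138 genes with a mean of at least 1 CPM, and are given as a description with no p. Anxa2 went with Piga (r = 0.87), of the pathway that makes lipid membrane anchors, and with S100a10 (r = 0.84), the gene of its partner protein p11. Within genotype, r of Anxa2 with S100a10 was 0.92 in Homo, 0.69 in Het and 0.88 in WT livers, and it was 0.76 with the mouse number removed. Anxa3 went with Adam8 (r = 0.84), a membrane metalloprotease, and with Myof (r = 0.81), a ferlin that takes part in membrane repair. Anxa1 went with Mfge8 (r = 0.89), a secreted protein that binds phosphatidylserine on dying cells, and with Lgals3 (r = 0.87), galectin-3.

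For Anxa8 the genes were Kif20a (r = 0.85), a kinesin of cell division, and Cdh3 (r = 0.78), P-cadherin, and for Anxa13 they were Rasal1 (r = 0.86), a Ras GTPase-activating protein, and Smchd1 (r = 0.78), a chromatin protein. Anxa5 went with Anln (r = 0.85), anillin of the cell division furrow, and Ly6d (r = 0.81), a surface protein. Anxa6 went with Pdk1 (r = 0.89), a kinase of pyruvate dehydrogenase, and Rmnd5a (r = 0.79), a subunit of a ubiquitin ligase. Anxa4 went with Plekhm3 (r = 0.79) and the nuclear pore gene Tpr (r = 0.75), Anxa7 with the splicing factor gene Srsf9 (r = 0.79) and the histone gene H3f3a (r = 0.79), and Anxa11 with Rabep1 (r = 0.81), of early endosomes, and Hacl1 (r = 0.79), a peroxisomal enzyme. The same 19 livers enter each of these values. Some of them did not hold in each genotype: r of Anxa6 with Rmnd5a was 0.06 within Het livers. Within WT livers, r of Anxa7 with Srsf9 was 0.30.

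**Figure D4:**
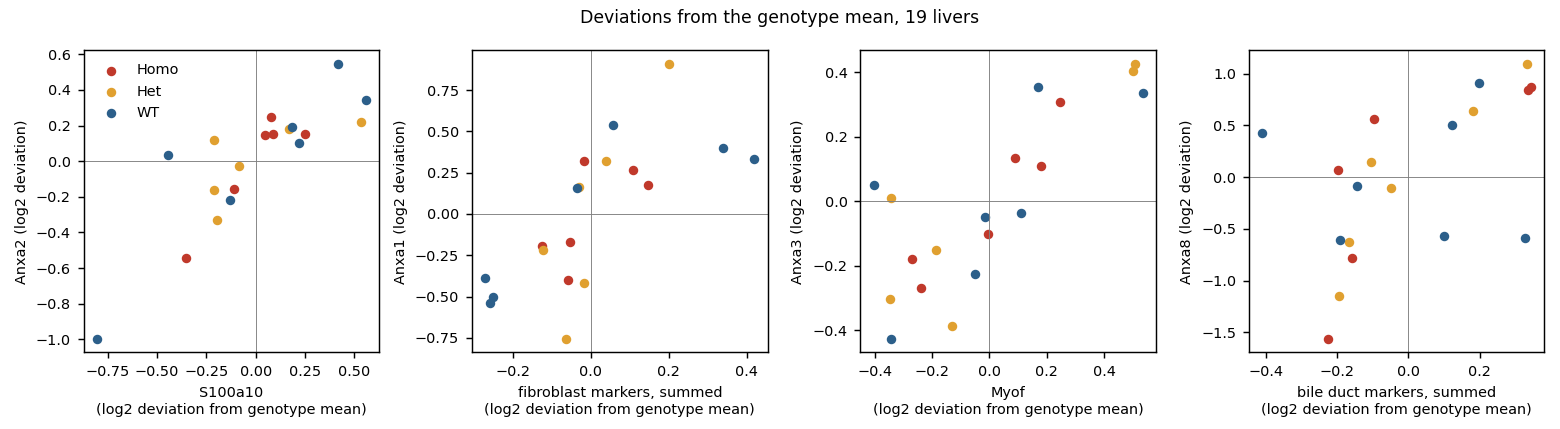
Log2 deviations from the genotype mean in 19 livers, 1 point per liver coloured by genotype: Anxa2 against S100a10 (r = 0.84), Anxa1 against summed fibroblast markers (r = 0.72), Anxa3 against Myof (r = 0.81) and Anxa8 against summed bile duct markers (r = 0.54). The points rise together in the first 3 panels in each genotype, and in the last panel the WT points show no such slope.

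Among 28 genes whose products bind, cleave or work beside annexins, chosen with earlier results of these data known, 25 were tested and 2 rose in Homo livers, S100a6 and Ahnak. The untested ones were Fpr2 and Fpr3, of the receptors for annexin A1 and formyl peptides, and Anxa10. The 28 include Anxa9 and Anxa10, the annexins outside the member list, so Anxa9 is among the 25 tested. S100a6, calcyclin, had 1.26, 1.94 and 2.83 CPM in Homo, 0.349, 0.678 and 0.869 CPM in Het, and 0.667, 0.807 and 1.08 CPM in WT livers. All 6 Homo livers exceeded every Het and every WT liver, as in 0.510% and 0.528% of all genes tested. S100a6 rose by 1.23 ± 0.24 on the log2 scale in Homo against WT (edgeR adjusted p = 0.0194) and by 1.61 ± 0.25 in Homo against Het (adjusted p = 0.00745).

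Ahnak, a giant scaffold protein that binds the complex of annexin A2 and p11, had 199, 261 and 315 CPM in Homo, 135, 160 and 210 CPM in Het, and 138, 157 and 181 CPM in WT livers. All 6 Homo livers were above every WT liver, as in 0.528% of all genes tested, and 5 of 6 were above every Het liver. Ahnak rose by 0.75 ± 0.12 on the log2 scale in Homo against WT (edgeR adjusted p = 0.00297) and by 0.67 ± 0.12 in Homo against Het (adjusted p = 0.0258). Most bile duct markers were also above 0 in Homo against WT, as given above, 10 of 11 tested with 3 called. The exception was Cftr, at -0.64 ± 0.61. The part of bile duct cells in the differences of S100a6 and Ahnak was not tested. Without mice 1 to 3, neither S100a6 (1.19, adjusted p = 0.221) nor Ahnak (0.71, adjusted p = 0.0639) was called in Homo against WT. Within mice 8 to 13 the values were 1.65 (adjusted p = 0.267) for S100a6 and 0.78 (adjusted p = 0.156) for Ahnak, and within mice 14 to 20, in Homo against Het, 1.15 (adjusted p = 0.821) and 0.40 (adjusted p = 0.882). Mice 14 to 20 are Homo mice 15, 16, 17 and 18 and Het mice 14, 19 and 20. Of all genes, 2 of 16662 were called in the first subset and 0 of 16313 in the second, so a missing call there says little. The S100a6 call in Homo against WT also ended without Homo replicates 2 or 3 or WT replicate 3 (adjusted p between 0.0529 and 0.0614), and the Ahnak call in Homo against Het ended without Homo replicates 2 or 3, without Het replicates 1, 2 or 3 (adjusted p between 0.0697 and 0.0831) and without the 3 libraries with pancreatic transcripts (adjusted p = 0.0767).

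The count of 2 of 25 partner genes called, both higher, stands beside 0.480% of all genes in Homo against WT (0.292% for higher calls) and 0.182% in Homo against Het. DESeq2 called 3 partners in Homo against WT (1.93% of all genes), the third being S100a10, lower in Homo (DESeq2 adjusted p = 0.0303), and limma-voom called 2 (0.553%). In Homo against WT 12 of the 25 were above 0, beside 50.3% of all genes, with a median of 0.00. In Het against WT 0 were called by edgeR (0.0243% of all genes), DESeq2 (0.170%) or limma-voom (0.0243%). There, 3 of 25 were at an unadjusted p under 0.05 in edgeR, beside 8.84% of all genes, and the median was -0.05. S100a10 had 23.47, 31.32 and 35.75 CPM in Homo, 25.52, 26.86 and 42.81 CPM in Het, and 26.04, 51.74 and 66.96 CPM in WT livers. In WT, 4 of 7 livers, those of mice 1, 2, 3 and 9, lay above every other liver of the study. The log2 fold change of S100a10 was -0.65 ± 0.18 in Homo against WT and -0.66 ± 0.18 in Het against WT (edgeR adjusted p = 0.13 and 0.363), and it was -0.20 in Homo against WT within mice 8 to 13. It fell along the mouse number by 0.045 ± 0.011 log2 units per number (adjusted p = 0.0179), as did Dysf, which encodes the membrane repair protein dysferlin, by 0.027 ± 0.007 (adjusted p = 0.0238), and Capn2, the large subunit of a calpain protease, by 0.025 ± 0.006 (adjusted p = 0.0269). These 3 of 25 partners called stand beside 6.40% of all genes. All 3 calls ended without the 3 libraries with pancreatic transcripts (adjusted p = 0.0509 for S100a10, 0.12 for Dysf and 0.0734 for Capn2) and with WT libraries only (adjusted p = 0.0515, 0.564 and 0.0767). Without mice 1 to 3 those of S100a10 (adjusted p = 0.215) and Capn2 (adjusted p = 0.235) ended. Leaving out 1 library ended that of S100a10 without Het replicate 1, that of Dysf without Het replicates 5 or 6, and that of Capn2 without Het replicates 1, 3, 5 or 6 or WT replicates 1, 2 or 7 (adjusted p between 0.0509 and 0.0851). Myof had 25.3, 31.5 and 36.2 CPM in Homo, 15.9, 18.2 and 28.8 CPM in Het, and 15.9, 20.8 and 30.5 CPM in WT livers, overlapping between genotypes, with a log2 fold change of 0.52 ± 0.17 in Homo against WT (adjusted p = 0.192).

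**Figure D5:**
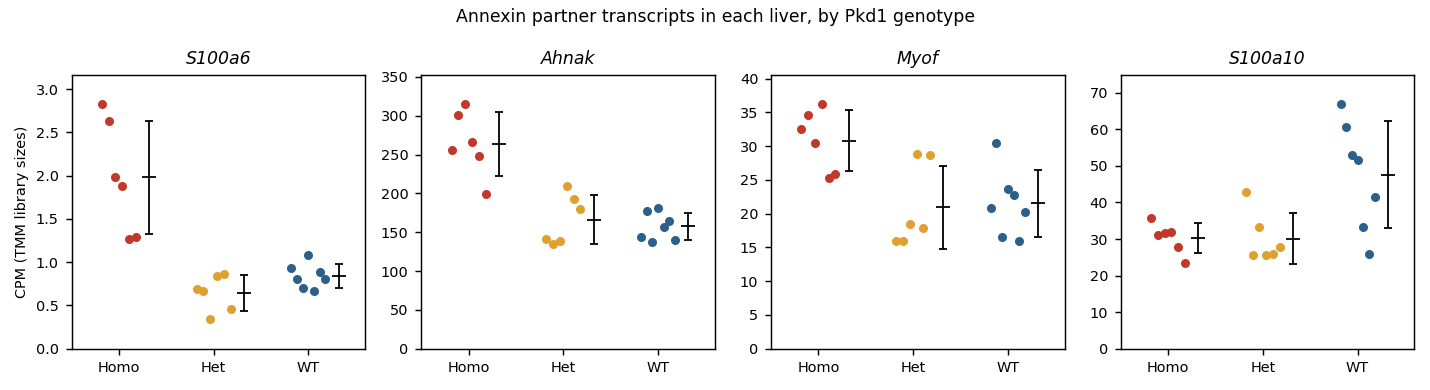
CPM of 4 annexin partner genes in each liver, 1 point per mouse in order of mouse number within each genotype, with the mean and SD beside (Homo n = 6, Het n = 6, WT n = 7); each axis starts at 0. S100a6 in Homo livers lies above all other livers, Ahnak in Homo livers lies above all WT livers, and S100a10 is highest in 4 of the 7 WT livers.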

How the data were processed

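RNA of 19 mouse livers was extracted with Trizol and a Qiagen column kit and prepared with a NuGen Ovation kit, per the labels' protocols. The deposited table holds the authors' raw counts for each gene and liver, made with STAR 2.7.2b and featureCounts 1.6.4 on GRCm38, per the submitters' processing notes. The annotation and strand setting behind the counting are not stated. Of the rows, 27 carry a calendar date as name, 0.145 to 0.174% of each total, and stayed in the totals only. Each of the 51 same-genotype library pairs differed by more than sampling noise (lowest chi-square over its degrees of freedom 22.4). Whether mice were separate litters is not stated, so p-values measure the spread between these samples.

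The counts were fitted in R 4.3.3 with edgeR 4.0.16 (TMM, filterByExpr by genotype, quasi-likelihood F test, 1 fit of 19 libraries, two-sided, Benjamini-Hochberg adjusted p under 0.05 over 16463 genes). A second fit added mouse number. SE is the fold change over the square root of F, and log2 CPM used a prior count of 2. The fit was checked on simulated counts. Alternatives were DESeq2 1.42.0, limma-voom (limma 3.58.1) with quality weights, DESeq2 size factors, other filters, subsets of mice and leaving out each library. Exon lengths came from GENCODE vM21 and promoters from RefSeq. Named genes are the members, Pkd1, Anxa9, Anxa10, partner and marker genes called in a comparison, and the 2 genes most like each member. Members, partner genes and the lists of bile duct, fibroblast, macrophage, endothelial, mesothelial, T and NK, neutrophil, hepatocyte and pancreatic markers were chosen with earlier results of these data known. The values of 1 of the 12 bile duct markers in the summed level are not reported here.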

Additional observations from a re-analysis of the deposited data

Results flagged for a closer look

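Pancreatic enzyme transcripts (Prss2, Ctrb1, Cela1, Cela2a, Cpa1 and Pnlip), which enter no comparison of the annexins, summed to 158.8 CPM in Homo replicate 1, 262.2 CPM in Homo replicate 5 and 125.2 CPM in Het replicate 5, against 1.16 to 3.18 CPM in the other 16 livers. These 3 livers stand apart from all WT livers in this measure. The 10 members, Anxa9, Pkd1, S100a6, Ahnak, S100a10, Myof, Capn2 and Dysf were checked for single livers far from the rest of their genotype, 54 groups of values in all, and 0 were found, where chance gives about 1 in 20.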

How the results depend on the processing

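The alternatives covered the members, Pkd1, Anxa9, S100a6, Ahnak, S100a10 and Myof, and for mouse number the members, Capn2, Dysf and S100a10. Among these and the correlations that passed, no called value changed its sign. Single marker genes were fitted with edgeR, DESeq2 and limma-voom only. The count of members called in Homo against WT was 1 with edgeR, 2 with DESeq2 (Anxa8 and Anxa13), and 0 with limma-voom, with no filter, with a filter of 1 CPM in 6 libraries (which leaves Anxa8 untested), with only the 2 genotypes compared, without mice 1 to 3, within mice 8 to 13 and with a term for mouse number. Anxa8 stayed between 1.99 and 2.75 on the log2 scale in those that tested it. In Homo against Het the count of members was 0 with edgeR and 2 with DESeq2. Partner genes called in Homo against WT numbered 2, 3 with DESeq2 (S100a10 added), and 0 without mice 1 to 3 or within mice 8 to 13. In Homo against Het they numbered 2, then 1 with only the 2 genotypes compared or without the 3 libraries with pancreatic transcripts, and 0 within mice 14 to 20. Correlations with marker lists passed in 3 cases, and in 0 without mice 1 to 3. Member pairs passed in 0 cases, and in 2 without the 3 libraries with pancreatic transcripts, an alternative chosen after seeing the data. Leaving out 1 library gave 0 to 1 members called in Homo against WT, 0 in Het against WT and for mouse number, 0 to 1 in Homo against Het, 1 to 3 partners in Homo against WT (3 without WT replicate 6, with S100a10 added), 0 in Het against WT and 1 to 2 in Homo against Het, 0 to 4 marker correlations and 0 to 1 member pairs. Causes of these changes were not tested, and the subsets also hold fewer mice. No paired analysis was possible because each mouse number occurs once and the genotypes share none. Anxa8, Anxa13 and S100a6 rest on fewer than 100 counts per library, which limits their precision.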

Other observations

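Annexin genes were set beside the genes of 5 known binding partners, pairs chosen after their values had been seen, over the 19 livers with genotype means removed. The p-values of these pairs are therefore descriptions and support nothing by themselves. Anxa2 with S100a10, already among the most alike of 12138 genes, gave Pearson's r = 0.84 (permutation p = 4e-05, 0.0002 adjusted over the 5 pairs) and Spearman's rho = 0.83 (permutation p = 6e-05, adjusted 0.0003), with r = 0.73 without the 2 farthest livers and 0.76 with the mouse number removed (permutation p = 0.00167). The other 4 pairs did not pass: Anxa7 with Sri, which encodes sorcin, gave r = 0.29 (rho = 0.31), Anxa1 with S100a11 r = 0.15 (rho = 0.23), Anxa11 with Pdcd6 r = 0.01 (rho = 0.15) and Anxa11 with S100a6 r = -0.06 (rho = -0.04), with permutation p adjusted over the 5 pairs of at least 0.574 for each. S100a6 was higher in Homo livers while Anxa11, the gene of its binding partner, was at 9.62 ± 1.59 CPM in Homo and 8.53 ± 1.08 CPM in WT livers (SD).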
